A study of Drosophila melanogaster with 8 samples.

Results

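Long noncoding RNAs (lncRNAs) of the adult male fly head were compared between starvation and food. The annotation of the counted table names them with the prefix lncRNA, and 1921 of its 17518 named genes carried it. Members were selected on their level: an RNA was kept when its mean over all 8 libraries, as a share of the counts of each library, was at least 2 CPM (counts scaled to 1e+06 per library). This left 138 lncRNAs, while 1783 lay below that level and 205 of those had no count in any library. The choice used the level over both conditions together and not the difference between them. The lncRNAs just above the limit were CR45592 at 2.003, CR44120 at 2.01 and CR45267 at 2.03 CPM, and those just below it were CR32385 at 1.92, CR44702 at 1.90 and CR44298 at 1.88 CPM. Of the 138, 126 reached 2 CPM in both conditions, 7 in starvation only and 5 in food only.

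The starvation group held 4 samples of heads from w1118 males, a white-eyed laboratory strain, without food for 1 day. The food group held 4 samples of males of the same strain kept on food for the same 1 day. Flies were 1 to 3 days old, and each sample was a pool of 30 flies. Diet was the only difference described between the groups. Each sample gave 1 poly(A)+ library sequenced as paired ends, with 48541958 to 50814153 counts on genes in starvation and 47936038 to 53168449 in food.

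A long noncoding RNA is transcribed, and often spliced and polyadenylated, like a messenger RNA, but is not known to be translated. A few in the fly have a known job. roX1 and roX2 are the RNA parts of the male-specific lethal (MSL) complex, which binds the single male X chromosome and raises transcription from it. Hsromega is the heat shock RNA that nucleates omega speckles, nuclear bodies that hold hnRNP proteins. let7C is the primary transcript of the let-7 microRNA cluster, and CRG lies in the CASK gene and has been tied to locomotion. Most of the others carry only a CR number. Many lie inside or across protein-coding genes, so the reads counted on them can be shared. Whether counting used strand was not given in the sources used here, and reads of an lncRNA and of an overlapping gene cannot then be told apart.

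The label was checked against the RefSeq annotation of Release 6. RefSeq matched 137 of the 138 by name or identifier, 133 of them as lncRNAs and 133 at the same coordinates. CR43051 is a protein-coding gene there, CR42875 a pseudogene, CR44811 and CR46194 antisense RNAs, and CR45557 had no match. Sequences of these RNAs were not used here.

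Across the libraries, the markers of males, roX1, roX2 and msl-2, summed to 1806 to 2156 CPM in starvation and 1580 to 1612 CPM in food, and the yolk protein genes Yp1, Yp2 and Yp3 to 15.2 to 19.8 and 13.7 to 18.9 CPM (0 of 3 passed edgeR's test of starvation against food, none at an unadjusted p under 0.05 or with DESeq2, edgeR's exact test or limma-voom). Neuron markers summed to 3501 to 5602 CPM in starvation and 4661 to 5333 CPM in food (0 of 6 passed, likewise none at an unadjusted p or with those tools), and muscle markers to 3505 to 4898 and 4412 to 5458 CPM (0 of 7 passed, 2 at an unadjusted p under 0.05 and 1 with DESeq2). Photoreceptor markers were higher under starvation for 6 of 9 genes, with sums of 19556 to 23074 CPM in starvation and 16429 to 18286 CPM in food. Glia markers were lower for 6 of 6, with sums of 1585 to 1884 and 2608 to 2934 CPM. Fat body markers were lower for 7 of the 9 tested, with sums of 942 to 1287 CPM in starvation and 6508 to 10753 CPM in food, and hemocyte markers for 5 of 5, with sums of 91.8 to 157 and 198 to 330 CPM. No marker in these lists was at 0 in all 8 libraries, but Fbp2, a fat body marker, had 0 to 5 counts per library and was not tested. In whole heads, fewer cells of a type and less RNA per cell cannot be told apart. Starvation replicate 3 stood apart from the other 7 libraries. In it the 10 top genes held 25.6% of all counts, and in the other libraries 17.7% to 20.3%, and the deviation of its genes from the mean of its condition ran with exonic length (Spearman -0.54 across genes, which are not independent replicates, against 0.26 to 0.36 in the other starvation libraries). Fold changes that this library moved by over 1.5 times are given with and without it.

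A few lncRNAs held most of the counts. Together the 138 took 0.888% to 1.16% of the counts of a library in starvation and 0.818% to 0.925% in food. CR42862 alone held 45.9% of the counts on lncRNAs, and roX1 held 17.4%. With CR42862 left out, the share was 0.558% to 0.582% in starvation and 0.476% to 0.499% in food, with no overlap between conditions. In all, 10 lncRNAs reached 100 CPM, 39 lay between 10 and 100 CPM and 89 lay below 10 CPM, around a median of 6.60 CPM.

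Exonic lengths ran from 214 bases to the 21710 bases of Hsromega, with a median of 1220 bases. Levels of different genes were therefore ordered per kilobase of exonic length. CR42862 led with 900 ± 203 CPM per kb in starvation and 731 ± 61.9 in food (SD, n = 4 each). Next came CR42491, with 544 ± 148 and 442 ± 16.9 CPM per kb, and CR34335, with 540 ± 204 and 425 ± 23.4 CPM per kb, which lay within each other's spread. By mean, roX1 followed with 347 ± 30.1 and 273 ± 1.71 CPM per kb, then noe with 321 ± 58.6 and 263 ± 14.99 and CR43900 with 224 ± 43.1 and 263 ± 25.5. roX1 and noe differed by less than the SD of noe in both conditions, and all 3 could not be ordered in food.

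**Figure D1:**
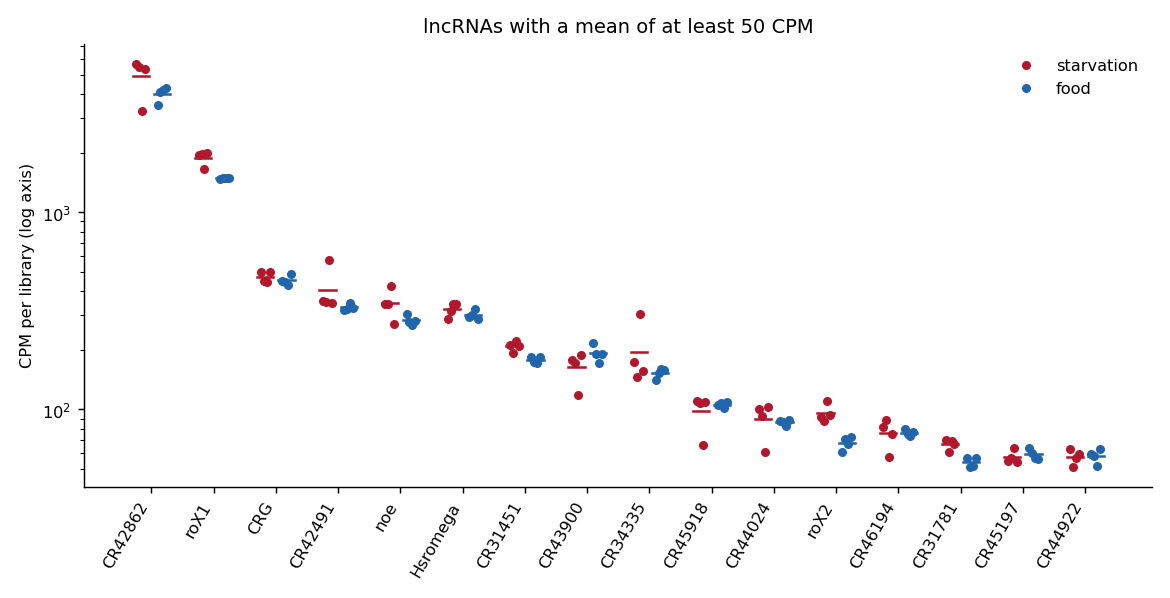
CPM per library on a log axis for the 16 lncRNAs with a mean of at least 50 CPM, starvation in red on the left and food in blue on the right of each pair, with bars at the means. CR42862 lay at 3280 to 5661 CPM in starvation and 3514 to 4272 CPM in food, and the starvation point that stands apart from its group in CR42862, CR42491, CR34335 and CR45918 is replicate 3.

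The question of the comparison was which of these RNAs changed in level in the head when flies were deprived of food. Of the 138 lncRNAs, 36 passed at an adjusted p under 0.05 (quasi-likelihood test of edgeR, Benjamini-Hochberg over all 12048 genes tested), 21 of them higher and 15 lower in starvation. That was 26.1% of the lncRNAs, beside 26.7% of all genes tested, and the share of all genes was 10% higher and 16.7% lower. With a change of at least 2-fold as well, 9 lncRNAs were called, 2 higher and 7 lower, or 6.52%, beside 6.3% of all genes tested (0.93% higher and 5.37% lower). With both directions together, the shares of lncRNAs that passed and that were called thus lay near those of all genes. Of the 9639 other genes of at least 2 CPM, 30.2% passed (1102 higher and 1809 lower) and 5.76% were called. By direction, more of the lncRNAs that passed were higher, while more of the other genes were lower. This difference was not tested. The conditions did not overlap for 39 lncRNAs, against 31.2% of all genes tested. All 138 passed the filter on low counts, and 48 had an unadjusted p under 0.05. Without starvation replicate 3, 53 lncRNAs passed, 34 higher and 19 lower, and 11 were called. Tested against 2-fold itself, 3 remained, CR44964, CR43417 and CR43836. With upper-quartile normalization, which moved the median log2 fold change of all genes from -0.01 to 0.10, 32 were higher and 13 lower. The shares of all genes in these refits are not given here, so their counts are not read as particular to lncRNAs.

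The median log2 fold change of the 138 was 0.05, beside -0.01 over all genes tested, with quartiles at -0.26 and 0.29. It was positive for 74 and negative for 64. Among the 16 lncRNAs of at least 50 CPM, 3 passed, all higher, and 0 were called at 2-fold by edgeR (5 had an unadjusted p under 0.05), nor were any by DESeq2, edgeR's exact test or limma-voom. That was 18.8% passed and 0% called, beside 26.7% and 6.3% of all genes tested, and in so small a group the difference was not tested. Of the 58 lncRNAs below 5 CPM, 10 passed and 5 were called. That was 17.2% passed and 8.62% called, beside 26.7% and 6.3% of all genes tested, and these differences were not tested.

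On the X chromosome, 7 of 35 lncRNAs were higher and 2 lower, with a median log2 fold change of 0.10. On the other chromosomes 14 of 103 were higher and 13 lower, with a median of 0.03. Over all genes tested, 174 of 1954 were higher and 310 lower on the X (24.8% passed, beside 25.7% of the lncRNAs there), with a median of -0.02. Elsewhere 27.1% of all genes passed, beside 26.2% of the lncRNAs, with a median of -0.01 over all genes. The difference between the X and the other chromosomes was not tested.

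**Figure D2:**
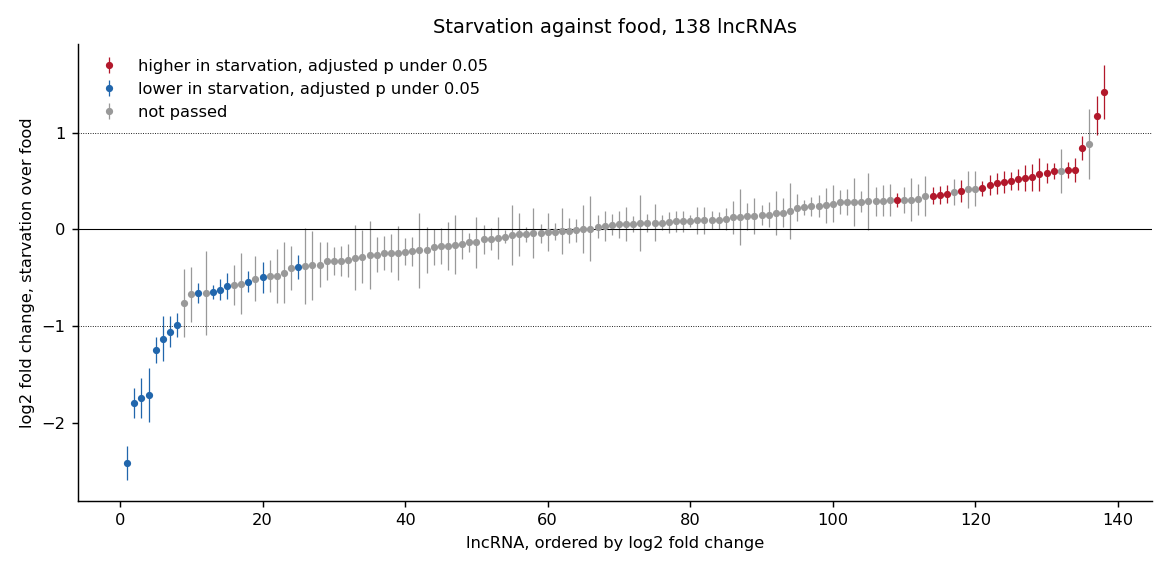
Log2 fold change of starvation over food with its standard error for each of the 138 lncRNAs, ordered from lowest to highest, with dotted lines at a 2-fold change. The 7 lncRNAs called lower reach -2.42 and the 2 called higher reach 1.42, and the quartiles lie at -0.26 and 0.29.

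Both roX RNAs were higher in starved male heads. roX1 (FBgn0019661, chromosome X, 3857230 to 3862697 on Release 6) had 1959, 1969, 1655 and 2012 CPM in the starvation libraries, against 1477, 1492, 1500 and 1491 CPM in the food libraries. Every starvation library lay above every food library, and replicate 3 was the lowest of the starvation group. The mean was 1899 ± 164 CPM in starvation and 1490 ± 9.35 CPM in food (SD, n = 4 each), a log2 fold change of 0.35 (SE 0.09, adjusted p = 0.016, edgeR). The exact two-sided permutation test gave p = 0.0286, the smallest that 4 against 4 libraries allow. Without starvation replicate 3 the log2 fold change was 0.41, and the adjusted p was 0.053 without food replicate 1 and 0.056 without food replicate 2.

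roX2 (FBgn0019660, chromosome X, 11579065 to 11580432) is the shorter of the pair and can stand in for roX1 in the complex. It had 91.7, 87.4, 110 and 93.3 CPM in the starvation libraries, against 60.6, 71.1, 67.0 and 72.1 CPM in the food libraries. The lowest starvation library lay above the highest food library. The log2 fold change was 0.50 (SE 0.09, adjusted p = 0.0022, edgeR), a ratio of 1.41. It passed with each library left out, at 0.42 to 0.55. roX2 overlapped no other gene, whereas roX1 shared 392 bases at 1 end with ec, which had a log2 fold change of -0.12 (adjusted p = 0.38).

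Of the 6 genes listed as partners of the roX RNAs, 1 passed. Clamp, a zinc finger protein that helps bring the complex to the X, had a log2 fold change of 0.19 (SE 0.06, adjusted p = 0.035), with 71.9 to 76.8 CPM in starvation and 63.5 to 65.5 CPM in food. Its adjusted p lay above 0.05 with any 1 of 6 libraries left out, at 0.055 to 0.10. msl-2, the subunit that limits the complex to males, had 47.6, 48.8, 41.3 and 50.8 CPM in starvation and 42.5, 43.5, 44.9 and 43.4 CPM in food, a log2 fold change of 0.11 (adjusted p = 0.32). Without starvation replicate 3 msl-2 was at 0.17 (adjusted p = 0.017). The helicase mle was at 0.10 (adjusted p = 0.39), or 0.15 without starvation replicate 3 (adjusted p = 0.043). The acetyltransferase mof was at 0.13, msl-3 at 0.25 and msl-1 at -0.04, with adjusted p of 0.39, 0.080 and 0.82, and msl-1 turned to 0.05 without starvation replicate 3.

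Hsromega (FBgn0001234, chromosome 3R, 21296127 to 21317836) had 289, 314, 341 and 344 CPM in the starvation libraries, against 294, 301, 324 and 287 CPM in the food libraries. The groups overlapped. Its log2 fold change was 0.10, with a 95% interval of -0.10 to 0.29 (adjusted p = 0.48, edgeR). Under the alternative fits listed below it ran from 0.07 to 0.40. It passed in none of them (adjusted p of 0.099 to 0.68), but the interval is no firm bound. Of 13 genes for hnRNPs and other omega speckle proteins, 2 passed, both lower, with a median log2 fold change of -0.05 over the list. They were Hrb87F, an hnRNP of the speckles, at 58.5 CPM in starvation and 75.8 CPM in food (log2 fold change -0.37, adjusted p = 0.0015), and the hnRNP squid (sqd), at 280.1 CPM in starvation and 362 CPM in food (log2 fold change -0.37, adjusted p = 0.045). Of 16 heat shock genes, 9 passed, all higher, with a median of 0.98 over the list. Of these 9, 6 were Hsp70 copies that are nearly identical, so the split of reads among them is uncertain. Their rise was uneven: Hsp70Aa had 98.2, 157, 404 and 340 CPM in the starvation libraries and 135, 111, 89.4 and 91.3 CPM in the food libraries, so that starvation replicate 1 lay within the food range. That was also so for Hsp70Ab. In Hsp70Ba, Hsp70Bb, Hsp70Bbb and Hsp70Bc the conditions did not overlap, at log2 fold changes of 1.97 to 2.07. Replicate 1 was again the lowest starvation library in these. Hsromega was lowest among the starvation libraries in the same replicate 1, and without it was at 0.17 (adjusted p = 0.22).

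CRG (FBgn0266181, chromosome 3R, 21783540 to 21786208) had 499, 449, 444 and 498 CPM in starvation and 450, 446, 430 and 490 CPM in food, a log2 fold change of 0.06 with a 95% interval of -0.13 to 0.25 (adjusted p = 0.68). The groups overlapped. CRG lies wholly within CASK, a scaffold kinase of synapses, whose own log2 fold change was -0.04 (adjusted p = 0.85). Without starvation replicate 3 that of CRG was 0.09 and that of CASK 0.06.

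The let-7 cluster transcript let7C (FBgn0263049, chromosome 2L, 18455717 to 18473132) was scarce, at 4.17, 5.15, 4.78 and 4.97 CPM in starvation and 4.19, 4.11, 5.07 and 3.76 CPM in food. Its log2 fold change was 0.15, with a 95% interval of -0.12 to 0.43 (adjusted p = 0.43). These counts are of the long primary transcript and not of the mature microRNAs.

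noe (FBgn0026197, chromosome 3L, 17400272 to 17401348) had 344, 342, 425 and 270 CPM in starvation and 306, 279, 268 and 283 CPM in food. Starvation replicate 4 lay within the food range, and the log2 fold change of 0.28 did not pass (SE 0.13, adjusted p = 0.13). Starvation replicate 3 was the highest library. Without it the value was 0.17 (adjusted p = 0.16), and without starvation replicate 4 it was 0.42 (adjusted p = 0.026). The gene lies inside blot, which was at -0.19 (adjusted p = 0.095). In all, 23 other lncRNA genes with a name of their own lay below 2 CPM and were not members, among them the alphagamma-element CR32865 at 1.04 CPM, sphinx at 0.648 CPM and acal at 0.526 CPM.

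Among the most abundant lncRNAs known only by number, starvation replicate 3 often decided the value. CR42862 (FBgn0262109, chromosome 3L, 224106 to 230964) had 5661, 5488, 3280 and 5323 CPM in starvation and 3514, 4067, 4176 and 4272 CPM in food. Replicate 3 lay below every food library and the other starvation libraries above all of them. The log2 fold change was 0.30 (SE 0.16, adjusted p = 0.22), and without that library it was 0.46 (adjusted p = 0.0010). CR42862 shares 1500 bases with CG33229, for which replicate 3 was also lowest, at 99.5 CPM against 268 to 274 CPM in the other starvation libraries and 168 to 220 CPM in food. CG33229 had a log2 fold change of 0.19 (adjusted p = 0.67), and of 0.44 without that library (adjusted p = 0.0024).

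CR42491 (FBgn0259993, chromosome X, 762615 to 763810) had 356, 350, 572 and 346 CPM in starvation and 322, 324, 349 and 326 CPM in food. Here replicate 3 was the highest library, and the groups overlapped only through the highest food library. The log2 fold change was 0.30 (adjusted p = 0.20), and 0.09 without that library (adjusted p = 0.17). It lies inside RpL22, a ribosomal protein gene, which was at 0.18 (adjusted p = 0.44), and at 0.02 without it.

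CR34335 (FBgn0267910, chromosome X, 3545750 to 3546110), inside DIP-alpha, showed the same library high, with 174, 146, 304 and 157 CPM in starvation and 141, 154, 160 and 158 CPM in food. Its log2 fold change of 0.35 did not pass (SE 0.20, adjusted p = 0.25) and was 0.05 without starvation replicate 3 (adjusted p = 0.60). DIP-alpha was at 0.09 (adjusted p = 0.58), and at 0.17 without that library (adjusted p = 0.068). CR43900 (FBgn0264501, chromosome 2R, 12259409 to 12260813), inside the calmodulin gene Cam, had 179, 172, 118 and 190 CPM in starvation and 218, 192, 172 and 191 CPM in food, a log2 fold change of -0.23 (adjusted p = 0.27), or -0.10 without starvation replicate 3 (adjusted p = 0.34). Cam was at -0.05 (adjusted p = 0.76), and at 0.00 without starvation replicate 3.

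CR45918 (FBgn0267578, chromosome 2R, 9310329 to 9313237) had 111, 108, 65.8 and 110 CPM in starvation and 105, 108, 102 and 109 CPM in food. The 7 libraries other than starvation replicate 3 lay between 102 and 111 CPM. The log2 fold change was -0.10 (adjusted p = 0.67) with that library and 0.05 without it. Its span lies within those of CG13739 and CG13954, which were at -0.09 and -0.03 with it and at 0.02 and 0.06 without it.

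CR31451 (FBgn0051451, chromosome 3R, 23983503 to 23985065) was steadier. It had 212, 194, 222 and 210 CPM in the starvation libraries and 185, 174, 172 and 185 CPM in the food libraries. The groups did not overlap, but the log2 fold change of 0.23 lay just outside the threshold (SE 0.08, adjusted p = 0.051). It passed without starvation replicate 2 (adjusted p = 0.0496) and without starvation replicate 3 (adjusted p = 0.017).

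The lncRNAs called at 2-fold were lower in 7 cases and higher in 2. For all 9 the conditions did not overlap, beside 31.2% of all genes tested, and the exact permutation p was 0.0286. The 9 were chosen by a test on the same libraries, so neither value is further support for them. Of the 9, those with a mean of at least 5 CPM were CR43417, CR43411, CR44133 and CR43051, all lower in starvation. The other 5 are named after their values were seen.

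CR44964 had the largest fall of the 138. This RNA (FBgn0266279, chromosome X, 6746399 to 6748020) had 1.18, 1.72, 1.27 and 1.25 CPM in starvation, against 6.57, 9.14, 7.34 and 6.02 CPM in food. Each food library held more than 3 times the level of any starvation library. The log2 fold change was -2.42 (SE 0.17, adjusted p = 4.9e-06), from 59 to 464 counts per library. It shares 477 bases with CG14439, which fell to 16.6 to 18.0 CPM in starvation, against 73.4 to 86.6 CPM in food (log2 fold change -2.25, SE 0.08, adjusted p = 8.4e-08).

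CR43417 and CR43650 lie 9854 bases apart on chromosome 2R, and both fell. CR43417 (FBgn0263336, 16817519 to 16819240) had 4.03, 4.46, 3.90 and 3.80 CPM in starvation, against 14.9, 12.7, 17.9 and 10.7 CPM in food (log2 fold change -1.79, SE 0.15, adjusted p = 1.4e-05). The spread among starvation libraries was small beside the gap to food. CR43650 (FBgn0263659, 16829095 to 16839494) is 10400 bases long with no intron in the table, and had 2.79, 3.10, 2.86 and 2.74 CPM in starvation, against 7.65, 6.99, 7.32 and 5.33 CPM in food (log2 fold change -1.25, SE 0.13, adjusted p = 5.4e-05). CR43650 overlapped no gene. CR43417 shares 59 bases with CG5550, which was far less abundant, at 0.231 ± 0.075 CPM in starvation and 0.623 ± 0.159 CPM in food (SD, n = 4 each, log2 fold change -1.42, adjusted p = 0.0075).

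CR43836 (FBgn0264384, chromosome X, 8972908 to 9048991) had 2.10, 2.53, 2.27 and 1.70 CPM in starvation, against 8.79, 5.89, 8.98 and 5.18 CPM in food. Food replicates 1 and 3 were high and replicates 2 and 4 lower, yet all lay above starvation. The log2 fold change was -1.74 (SE 0.20, adjusted p = 0.00011). The table marks CG10962 as overlapping it, and that gene shares 1348 bases with it at 1 end and had 1.78, 3.26, 3.29 and 1.57 CPM in starvation, against 15.4, 10.9, 15.4 and 9.11 CPM in food (log2 fold change -2.36, adjusted p = 8.4e-05). The span of CR43836 also shares 56569 bases with rdgA, the diacylglycerol kinase of photoreceptors, which was at 0.00 (adjusted p = 0.99), and at 0.10 without starvation replicate 3.

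CR43411 (FBgn0263330, chromosome 2L, 14613258 to 14613621) is short, with 364 bases. It had 2.93, 2.45, 4.25 and 1.27 CPM in starvation, against 9.16, 9.39, 9.93 and 7.21 CPM in food (log2 fold change -1.71, SE 0.28, adjusted p = 0.00096). The starvation libraries spread widely but stayed below food. It lies inside osp, which was at -0.14 (adjusted p = 0.51) and at 0.00 without starvation replicate 3. It lies 1930 bases from the alcohol dehydrogenase gene Adh, itself within osp, which fell to 2288 to 2983 CPM in starvation, against 4876 to 6420 CPM in food (log2 fold change -1.16, adjusted p = 5.2e-05).

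CR44133 (FBgn0264982, chromosome 3R, 15986181 to 15993665) lies inside srp, the GATA factor gene of fat body and hemocytes. It had 3.49, 7.05, 7.44 and 4.17 CPM in starvation, against 12.7, 10.9, 14.8 and 10.1 CPM in food (log2 fold change -1.13, SE 0.23, adjusted p = 0.0043). srp had 13.7, 22.3, 18.5 and 10.9 CPM in starvation, against 41.3, 37.7, 41.5 and 33.1 CPM in food (log2 fold change -1.23, adjusted p = 0.00069). In both, starvation replicates 2 and 3 were higher than replicates 1 and 4. The fold change of CR44133 dropped below 2-fold, to -0.93 and -0.98, without starvation replicate 1 or 4.

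CR43051 (FBgn0262353, chromosome 2L, 12507939 to 12508504) lies inside bun and contains a small nucleolar RNA gene, snoRNA:CG43051-a. It had 4.27, 3.43, 4.86 and 2.90 CPM in starvation, against 8.12, 7.76, 9.29 and 6.98 CPM in food (log2 fold change -1.06, SE 0.16, adjusted p = 0.00070). The counts on the small nucleolar RNA gene fell alongside it, to 1.41 to 2.27 CPM in starvation, against 3.57 to 4.63 CPM in food (log2 fold change -1.13, adjusted p = 0.00048), while bun was at -0.06 (adjusted p = 0.72), and at 0.02 without starvation replicate 3. CR43051 was below 2-fold without food replicate 3, at -0.98, and without starvation replicate 4, at -0.91. Of 8 genes for proteins of small nucleolar particles, none passed in edgeR's quasi-likelihood test (0 of 8, with 3 at an unadjusted p under 0.05, 1 by edgeR's exact test and 0 by DESeq2 and limma-voom), with a median log2 fold change of -0.17.

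The summed fat body markers (942 to 1287 CPM in starvation, 6508 to 10753 CPM in food), hemocyte markers (91.8 to 157 and 198 to 330 CPM) and glia markers (1585 to 1884 and 2608 to 2934 CPM) were lower in the same libraries as these 7 RNAs. Their part in the falls was not tested.

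The pair that rose were CR45457 and CR43653. CR45457 (FBgn0267013, chromosome 2L, 9327039 to 9327553) had 5.09, 4.10, 3.78 and 6.30 CPM in starvation, against 2.25, 2.19, 0.820 and 1.94 CPM in food (log2 fold change 1.42, SE 0.28, adjusted p = 0.0033). It overlapped no gene and lies 190 bases from CG17005 and 317 bases from another lncRNA, CR45456. CG17005 had 23.1, 20.6, 31.0 and 28.4 CPM in starvation, against 14.97, 14.96, 4.70 and 9.55 CPM in food (log2 fold change 1.22, adjusted p = 0.011). Food replicate 3 was lowest for all 3 genes of this cluster. CR45456 had 7.72, 8.05, 4.99 and 8.80 CPM in starvation and 5.21, 6.221, 1.33 and 3.28 CPM in food, a log2 fold change of 0.88 that did not pass (adjusted p = 0.10) and that was 1.03 without starvation replicate 3 (adjusted p = 0.048).

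CR43653 (FBgn0263662, chromosome 3R, 21592350 to 21594852) lies inside InR, the insulin receptor gene. It had 3.53, 3.41, 4.56 and 2.56 CPM in starvation, against 1.17, 1.52, 1.76 and 1.78 CPM in food (log2 fold change 1.18, SE 0.20, adjusted p = 0.0015). InR had 85.4, 111, 68.0 and 94.3 CPM in starvation, against 33.2, 33.1, 31.9 and 32.6 CPM in food (log2 fold change 1.46, SE 0.13, adjusted p = 1.7e-05). The libraries did not rank alike: starvation replicate 3 was highest for CR43653 and lowest for InR. In that library the deviations of genes ran with exonic length, and the cause of this order was not tested. CR43653 and CR45457 reached 2 CPM in starvation only, and CR44964 in food only, so that the higher condition alone carried these 3 over the limit. Of the 126 lncRNAs at 2 CPM or more in both conditions, 32 passed and 6 were called. Over all genes tested, 26.7% passed and 6.3% were called, so these counts are not read as particular to lncRNAs.

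**Figure D3:**
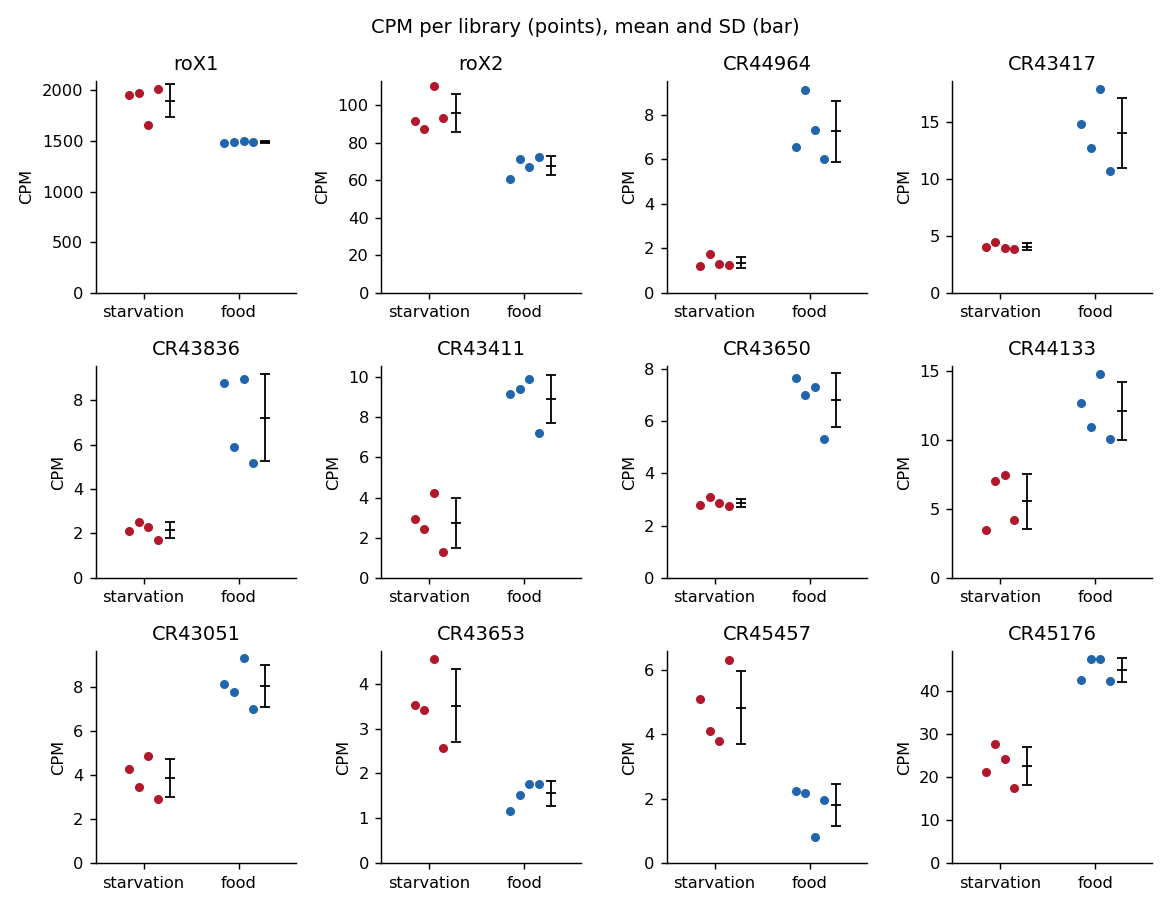
CPM in each library (points) with mean and SD (black bars) for roX1, roX2, the 9 lncRNAs called at 2-fold and CR45176, starvation in red on the left and food in blue on the right of each panel, with the vertical axis from 0. In every panel the conditions do not overlap, from a log2 fold change of -2.42 for CR44964 to 1.42 for CR45457.

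The 27 lncRNAs that passed without reaching 2-fold were 19 higher, with log2 fold changes of 0.30 to 0.84, and 8 lower, at -0.99 to -0.39. The conditions did not overlap in 18 of the 19 and in 7 of the 8, beside 31.2% of all genes tested. These 27 were chosen by the adjusted p from the same libraries, so these counts are no further support for them. Those described next were chosen after their values were seen.

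CR45176 (FBgn0266686, chromosome 3L, 20439600 to 20439921) lay at the edge of 2-fold. It had 21.2, 27.7, 24.2 and 17.4 CPM in starvation, against 42.6, 47.3, 47.3 and 42.4 CPM in food (log2 fold change -0.99, SE 0.13, adjusted p = 0.00019). Without any 1 of 4 libraries (starvation replicate 2 or 3, or food replicate 1 or 4) it passed 2-fold, at -1.10 to -1.01. It shares 273 of its 322 bases with CG11796, which had a log2 fold change of -0.92 (adjusted p = 0.0023). Only 32 bases away, CR43943 rose, with 3.25, 3.22, 3.15 and 3.54 CPM in starvation and 2.40, 1.95, 2.19 and 2.57 CPM in food (log2 fold change 0.53, SE 0.13, adjusted p = 0.012). The counts on these neighbouring lncRNAs thus moved in opposite directions. Those on CR45176 cannot be told apart from reads of CG11796, which had a mean of 341 CPM.

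CR44986 (FBgn0266321, chromosome 2L, 5947647 to 5948397), inside the glycerol phosphate dehydrogenase gene Gpdh1, had 31.9, 29.4, 27.2 and 28.2 CPM in starvation, against 47.7, 46.0, 43.8 and 44.9 CPM in food (log2 fold change -0.64, SE 0.07, adjusted p = 7.2e-05). Gpdh1 had 390 to 418 CPM in starvation, against 598 to 639 CPM in food (log2 fold change -0.62, adjusted p = 0.00014). Within each condition the libraries ranked in the same order for both genes.

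CR45668 (FBgn0267228, chromosome X, 5882480 to 5899989) rose, with 43.5, 47.3, 53.3 and 43.9 CPM in starvation, against 29.9, 29.2, 34.0 and 29.8 CPM in food (log2 fold change 0.61, SE 0.09, adjusted p = 0.00037). It shares 912 bases with CG16721, which was at 0.52 (adjusted p = 0.00020). CR43301 (FBgn0262993, chromosome 3R, 9338223 to 9339992) and CR31781 (FBgn0051781, chromosome 2L, 16869346 to 16878300) overlapped no tested gene. CR43301 had 3.29, 3.77, 3.66 and 3.89 CPM in starvation, against 1.99, 2.23, 1.87 and 2.07 CPM in food (log2 fold change 0.84, adjusted p = 0.00053), and CR31781 had 70.3, 60.6, 69.1 and 66.7 CPM in starvation, against 56.8, 51.0, 51.8 and 56.6 CPM in food (log2 fold change 0.30, adjusted p = 0.011).

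Since several called lncRNAs lay across a gene that moved the same way, overlap was counted for all members. The table named an overlapping gene for 36 lncRNAs. By their coordinates, 86 of the 138 shared bases with the span of another gene, including 50 for which the table named none, and 42 lay wholly inside another gene. Of the 36 lncRNAs that passed, 25 overlapped a tested gene. That gene also passed in 14 of the 25, and in the same direction in 14 of 14. Over all genes tested, 26.7% passed and 6.3% were called. Overlapping pairs can share reads, so their agreement in direction is not read as a result about the lncRNAs. Of the 7 called lncRNAs that overlapped a tested gene, 4 did so with a gene called in the same direction, taking for each lncRNA the gene with which it shared most bases. CR43836 and CR43051 also overlapped another gene that was called lower, CG10962 (log2 fold change -2.36) and snoRNA:CG43051-a (-1.13), with which they shared fewer bases.

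Over the 84 lncRNAs that overlapped a tested gene, the log2 fold changes of lncRNA and gene had a Pearson correlation of 0.75 and a Spearman correlation of 0.69. With the nearest gene that did not overlap, at a median distance of 975.5 bases, the values over all 138 were 0.26 and 0.24. These are descriptions across genes that share the same 8 libraries and, for overlapping pairs, possibly the same reads. Without the called lncRNAs (n = 77) the correlation with the overlapping gene was 0.71 and 0.68. It was 0.52 and 0.57 for the 36 lncRNAs for which the table named a gene and 0.83 and 0.70 for the 48 for which it named none. In both sets the lncRNA was compared with the gene sharing most bases, which was not always the gene named. CR43836 was compared with rdgA and not CG10962, and CR43051 with bun and not snoRNA:CG43051-a.

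The 52 lncRNAs that shared no base with another gene carry no such ambiguity by these coordinates. Of these, 9 were higher and 2 lower, and 2 were called, CR43650 lower and CR45457 higher, with a median log2 fold change of 0.13. That was 21.2% passed and 3.85% called, beside 26.7% and 6.3% of all genes tested. The 42 inside another gene had 6 higher and 4 lower, with 4 called and a median of -0.03, or 23.8% passed and 9.52% called. roX2, CR31781, CR43301 and CR43943 were among the 52. Counted RNAs with an antisense name, a separate class that by name lies opposite a gene, had 25 higher and 58 lower among 330 at 2 CPM or more, with 21 called, all lower (25.2% passed and 6.36% called). The difference between these classes was not tested.

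**Figure D4:**
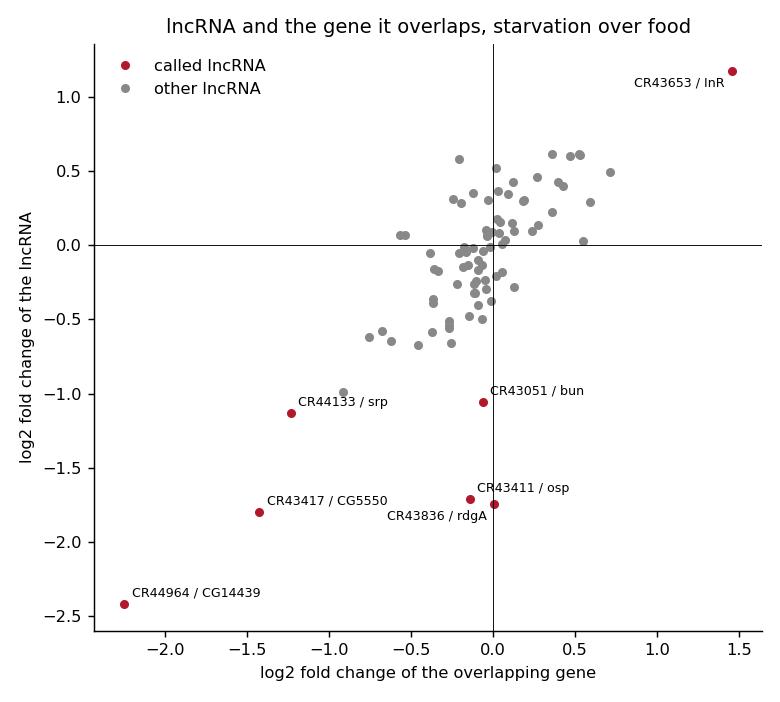
Log2 fold change of the lncRNA against that of the gene with which it shares most bases, for the 84 lncRNAs that overlap a tested gene, with called lncRNAs in red and labelled with their partner. CR44964, CR43417, CR44133 and CR43653 lie with partners that changed by at least 2-fold in the same direction, while CR43836, CR43411 and CR43051 fell beside a partner between -0.14 and 0.00. CR43836 and CR43051 also overlap CG10962 (-2.36) and snoRNA:CG43051-a (-1.13), which share fewer bases with them and are not the partners plotted.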

How the data were processed

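Male fly heads were sequenced from 4 starvation and 4 food samples. The authors mapped the reads with STAR 2.6.1b to the Drosophila genome (Release 6), joined the sequencing runs of each sample and counted with ASpli. The deposited table holds raw counts, without normalization, and other columns give the position and exonic length of each gene as the authors' annotation has them. The ASpli version, its filters and its use of strand were not given in the sources used here. The row without a gene name (1 row, under 0.0054% of any library) was left out. At 47936038 to 53168449 counts per library, counting error was small for most members, and the common biological coefficient of variation was 0.138.

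Members were selected on counts over column sums. Printed CPM use TMM factors. Genes were filtered with filterByExpr and tested with edgeR 4.0.16 under R 4.3.3 (quasi-likelihood), starvation over food, with Benjamini-Hochberg adjustment over 12048 genes. Called means an adjusted p under 0.05 and at least 2-fold, the thresholds of the study, and passed means the adjusted p alone. A standard error is the log2 fold change over the square root of F. For single genes, an exact permutation test (two-sided, 70 splits) was added. Between any 2 libraries of a condition, chi-square per degree of freedom was at least 12.7, so no library was taken as a copy of another. P-values measure the spread between these pools.

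Members, named genes and gene lists (roX partners, omega speckle proteins, heat shock genes, proteins of small nucleolar particles, and markers of neurons, glia, photoreceptors, fat body, muscle, hemocytes, males and females) were chosen with earlier results of these data known. The named genes are members with a name of their own, the 10 highest members, those called at 2-fold, the 3 on each side of the limit, the genes the table marks as overlapping them, and the lists.

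Alternatives were RLE and upper-quartile normalization, DESeq2 1.42.0, edgeR's exact test, limma-voom (limma 3.58.1), other filters and membership limits, a replicate block, each library left out, the 10 most abundant genes left out, exonic length taken out, and a test against 2-fold. Membership without overlap by coordinates was added after seeing the data. Counts were also simulated at the depths and mean levels of these libraries (12082 genes tested, 100 changed per fold). At an adjusted p under 0.05, 67 genes changed 1.5-fold and 100 changed 3-fold were recovered, and 4 unchanged genes passed. The simulation gave every gene the same coefficient of variation, 0.138, and had no library that stood apart. Recovery and false passes in the real data can therefore differ.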

Additional observations from a re-analysis of the deposited data

Results flagged for a closer look

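In 12 of 114 sets of 4 libraries, 1 library stood farther from the other 3 than Dixon's 95% limit allows, where chance gives about 5.7. Starvation replicate 3 was that library for 7 genes. It was low for roX1 (1655 CPM, the others 1959 to 2012), CR42862 (3280 CPM, the others 5323 to 5661), CR45918 (65.8 CPM, the others 108 to 111), CG33229 (99.5 CPM, the others 268 to 274), CG13739 (152 CPM, the others 210 to 222) and CG13954 (142 CPM, the others 180 to 187), and high for CR42491 (572 CPM, the others 346 to 356). Food replicate 3 was high for CR42491 (349 CPM, the others 322 to 326) and CR45668 (34.0 CPM, the others 29.2 to 29.9), and low for DIP-alpha (25.2 CPM, the others 28.8 to 29.2) and mof (6.09 CPM, the others 7.28 to 7.48). Starvation replicate 2 was high for CR44964 (1.72 CPM, the others 1.18 to 1.27). CG33229 overlaps CR42862, and CG13739, CG13954 and CR45918 overlap each other, so these are not independent.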

How the results depend on the processing

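The count of lncRNAs called at 2-fold, 9, lay at 8 to 10 under the other normalizations, tests, filters and the length correction (8 with upper-quartile factors, where CR43051 was lost), and at 3 when tested against 2-fold itself (CR44964, CR43417 and CR43836). It was 14 of 202 with a limit of 1 CPM, 4 of 80 with 5 CPM and 2 of 52 without overlap by coordinates, where 11 passed, as other lncRNAs were members. With each library left out, 7 to 11 were called, 31 to 53 passed and the median lay at 0.018 to 0.088. These counts are likewise without the share of all genes in the same fit. Upper-quartile normalization gave a median of 0.16, with all genes at 0.10, and signs turned for CR45918 (0.0079), CASK (0.074), Cam (0.064), CG13739 (0.020), CG13954 (0.088), bun (0.051) and msl-1 (0.078). The length correction turned CASK (0.039), CG13954 (0.047) and bun (0.079). With 1 library left out, signs also turned, with a range of -0.15 to 0.051 for CR45918, -0.073 to 0.062 for CASK, -0.092 to 0.0042 for Cam, -0.13 to 0.021 for CG13739, -0.054 to 0.060 for CG13954, -0.20 to 0.0023 for osp, -0.095 to 0.021 for bun, and -0.074 to 0.049 for msl-1. rdgA was at -0.0053 with limma-voom, -0.0048 with the block, and -0.041 to 0.096 with 1 library left out. None of these values passed. The causes were not tested.

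With replicate number as a block, 11 lncRNAs were called (all 9, with CR45176 and CR45456) and 39 passed. Libraries of the same number had correlated deviations of 0.019, 0.063, 0.12 and 0.17, and 6 of 8 correlated best with their own number, a hint from the data and not the design. Few counts limit the lowest members, which reached down to 15 in a library. That was CR44392 in starvation replicate 3, at 0.294 CPM against 1.88 to 2.84 CPM in the other starvation libraries. With 50814153 counts on genes, that library was the deepest of the starvation group.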
